A study of Mus musculus with 9 samples.

Results

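The interleukin-6 (IL-6) family was followed through its transcripts in mouse embryonic fibroblasts. It was taken as 8 genes listed by symbol, 4 ligands (Il6, Lif, Il11 and Clcf1) and 4 receptor chains (Il6ra, Il6st, Osmr and Lifr). All 8 were matched by Ensembl identifier among the 46603 gene identifiers of the count data, and all 8 passed the filter on low counts. The fibroblasts were of the BALB/c strain, were derived from embryos of day 10.5, and carried a knockout of the β-actin gene in every group. Cells of 1 group received the synthetic double-stranded RNA poly(I:C) at 10 µg/ml for 6 h. A second group received the synthetic double-stranded DNA poly(dA:dT) at the same concentration and for the same time. Both were transfected in Opti-MEM medium with a cationic lipid reagent, which mock cells received without nucleic acid. Each group held 3 libraries, 9 in all, and the series addresses the response of these knockout cells to mimics of viral nucleic acid. Cells with intact β-actin were not analysed here, so no value below bears on the knockout itself. Whether the fibroblasts are 1 clone or were pooled from several embryos is not stated in the labels. Nor is it stated whether the 3 libraries of a group came from separate cultures, so a p-value here covers just the spread among these libraries, which could be technical.

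IL-6 family cytokines act through receptors that share gp130, the signalling chain encoded by Il6st. IL-6 and IL-11 first bind their own receptor chains (Il6ra, Il11ra1) and then pair gp130 with itself. Leukaemia inhibitory factor joins gp130 to the chain encoded by Lifr, and oncostatin M joins it to that of Osmr. The assembled receptors activate JAK kinases and the transcription factor STAT3, which induces Socs3, a feedback inhibitor of the same receptors. Fibroblasts are a known source of IL-6 and LIF during inflammation, and the Il6 promoter is a textbook target of NF-kB, AP-1 and C/EBP factors.

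Counts assigned to genes summed to 16082772 to 22382837 per library after poly(I:C), 20738109 to 23185293 after poly(dA:dT) and 19826550 to 29219797 in mock. Levels are given as CPM, counts scaled to the library size after TMM correction. A count of 0 leaves room for up to 3 counts, which is 0.107 to 0.18 CPM in these libraries. The knocked-out gene, Actb, kept 565 to 924 counts per library, or 29.1 to 34.6 CPM, and how much of it was deleted is not stated in the labels. The 10 fibroblast markers summed to 6459.7 to 6761.2 CPM after poly(I:C), 7260.1 to 7382.1 CPM after poly(dA:dT) and 7526.8 to 7691.3 CPM in mock. Of these markers Lum was at 0 after both treatments and at 1 count in mock. The 8 haematopoietic markers summed to 2.22 to 3.66, 2.83 to 3.51 and 4 to 4.9 CPM in the same order of groups, with Ptprc and Cd3e at 0 in every library. The 6 epithelial markers summed to 7.73 to 8.31, 8.21 to 9.39 and 8.8 to 9.88 CPM. The summed CPM of the 6 endothelial markers was higher after treatment, at 5.57 to 6.83 after poly(I:C) and 3.69 to 4.87 after poly(dA:dT), against 1.95 to 2.61 in mock. Tie1 was at 0 in every library, while Cdh5 had 61 counts after poly(I:C), 14 after poly(dA:dT) and 0 in mock. Of 9 tested fibroblast markers 7 were lower and 1 higher after each mimic by the test described below, where 36.3% of all tested genes were lower and 39.8% higher after poly(I:C), and 26.2% and 26.6% after poly(dA:dT). Among the endothelial markers Pecam1 had 119 counts after poly(I:C), 87 after poly(dA:dT) and 29 in mock, and Kdr had 90, 81 and 32, both higher than mock after each mimic. Vwf did not rise, with 81, 86 and 98 counts in the same order of groups (adjusted p = 0.887 after poly(I:C) and 0.767 after poly(dA:dT)). Of 3 tested haematopoietic markers 2 were lower after poly(I:C) and 1 after poly(dA:dT), and of 2 tested epithelial markers 1 was higher (Cdh1) and 1 lower (Krt18) after poly(I:C), while after poly(dA:dT) Cdh1 and Krt18 had adjusted p of 0.199 and 0.277. The part of these shifts in the results below was not tested, and in bulk RNA fewer cells of a type and less RNA per cell cannot be told apart.

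The promoter windows of 4 members are shown, since these members had the largest rises (Il6, Lif, Osmr) or a fall after poly(I:C) that was not called after poly(dA:dT) (Il6ra). Each window runs from 250 bases before to 50 bases after the RefSeq transcription start in build GRCm38.p6. RefSeq windows were at hand for 7 of the 8 members, the exception being Clcf1. Capitals mark matches, on either strand, to 6 motifs. They are NF-kB (GGG, any 3 bases, TTCC), AP-1 (TGANTCA), C/EBP (TTGCNNAA), the CRE core (TGACGT), the STAT or GAS element (TTCNNNGAA) and the interferon-stimulated response element, ISRE (GAAA, any 2 bases, GAAA).
Il6, chr5:30012864-30013163, plus strand: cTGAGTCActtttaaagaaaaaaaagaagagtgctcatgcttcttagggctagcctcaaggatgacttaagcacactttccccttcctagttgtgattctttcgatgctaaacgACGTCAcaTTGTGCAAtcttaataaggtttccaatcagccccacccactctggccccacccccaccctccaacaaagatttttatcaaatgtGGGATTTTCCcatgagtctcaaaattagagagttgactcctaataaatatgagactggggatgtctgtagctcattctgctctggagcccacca
Lif, chr11:4257318-4257617, plus strand: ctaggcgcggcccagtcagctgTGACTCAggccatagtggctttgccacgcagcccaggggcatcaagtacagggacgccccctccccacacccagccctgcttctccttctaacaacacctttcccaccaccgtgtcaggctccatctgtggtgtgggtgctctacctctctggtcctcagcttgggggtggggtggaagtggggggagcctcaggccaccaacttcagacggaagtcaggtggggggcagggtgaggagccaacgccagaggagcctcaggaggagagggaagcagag
Osmr, chr15:6874264-6874563, minus strand: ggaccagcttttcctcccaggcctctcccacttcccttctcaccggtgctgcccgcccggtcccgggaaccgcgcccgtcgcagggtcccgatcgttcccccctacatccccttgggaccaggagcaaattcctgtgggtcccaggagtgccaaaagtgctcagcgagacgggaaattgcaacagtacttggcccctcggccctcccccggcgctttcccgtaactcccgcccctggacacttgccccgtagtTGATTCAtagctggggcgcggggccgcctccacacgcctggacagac
Il6ra, chr3:89913147-89913446, minus strand: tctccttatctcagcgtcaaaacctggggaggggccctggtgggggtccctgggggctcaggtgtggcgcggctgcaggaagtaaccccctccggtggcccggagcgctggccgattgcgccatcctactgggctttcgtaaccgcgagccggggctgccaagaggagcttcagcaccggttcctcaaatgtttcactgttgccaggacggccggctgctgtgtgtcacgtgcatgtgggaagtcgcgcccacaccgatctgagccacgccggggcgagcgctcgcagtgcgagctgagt

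The Il6 window held 4 of the 6 motifs, none overlapping another. An NF-kB match, GGGATTTTCC, lay at -44 to -35 relative to the start, a C/EBP match at -128 to -121, a CRE core match at -136 to -131 and an AP-1 match, TGAGTCA, at -249 to -243. The Lif window held an AP-1 match, TGACTCA, at -228 to -222, and the Osmr window held one, TGATTCA, at bases 4 to 10 after the start. The Il6ra window held none of the 6 motifs, nor did the Il6st window or either Lifr window, while 1 of the 2 Il11 windows held an AP-1 match at -98 to -92. Among all 32851 promoter windows of the same length, 5.56% held the NF-kB motif, 7.81% the AP-1 motif, 10.8% the C/EBP motif, 7.51% the CRE core, 8.3% the GAS element and 3.44% the ISRE. The Il6 window had a GC content of 44%, against 63.7% for Lif, 66% for Osmr and 66% for Il6ra. A match describes letters in the window and does not show a bound site.

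After poly(I:C), 4 of the 8 members rose (Il6, Lif, Osmr and Il6st), 2 fell (Il6ra and Clcf1), and Il11 and Lifr did not pass the test. Tests are edgeR's quasi-likelihood test with Benjamini-Hochberg adjustment over 14176 genes, and a gene with an adjusted p under 0.05 is said to be called. Poly(I:C) changed much of the transcriptome, with 76.1% of all tested genes called (39.8% higher and 36.3% lower), so 6 of 8 is close to the background. A change of at least 2-fold was rarer, at 14.2% of tested genes, and 3 members reached it (Il6, Lif and Osmr). After poly(dA:dT), 3 members rose (Il6, Lif and Osmr), 2 fell (Clcf1 and Il6st) and 3 were not called, where 52.8% of tested genes were called (26.6% higher and 26.2% lower). Of these Il6 and Lif changed at least 2-fold, against 3.9% of tested genes. Poly(I:C) set against poly(dA:dT) gave 4 members higher (Il6, Lif, Osmr and Il6st), 1 lower (Il6ra) and 3 not called, where 63.4% of tested genes were called (31.3% higher and 32.1% lower). In that comparison Il6 and Osmr differed at least 2-fold, against 8.03% of tested genes. The called members were those whose CPM values did not overlap between the groups, and such separation was found in 76.8% of tested genes for poly(I:C) against mock, 57.2% for poly(dA:dT) against mock and 66.1% for poly(I:C) against poly(dA:dT). The comparisons with mock share the mock libraries.

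**Figure D1:**
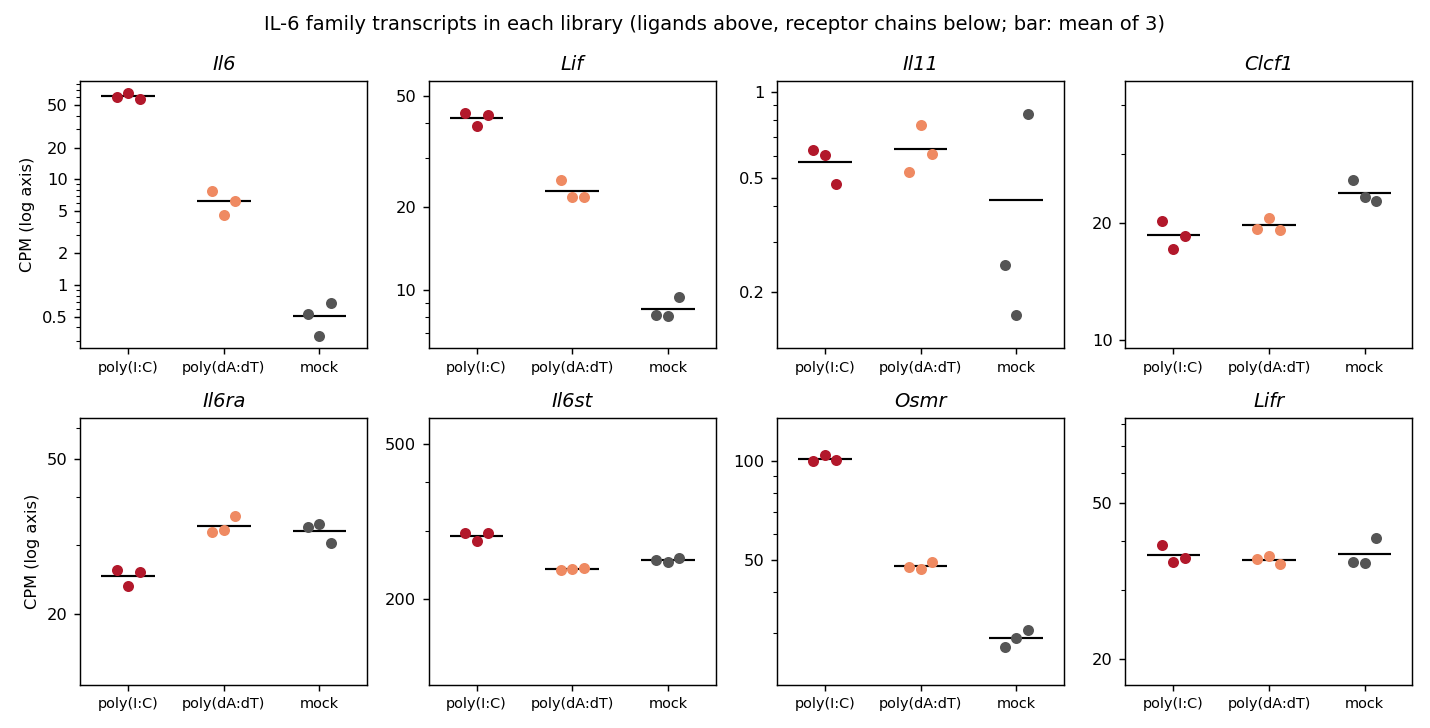
CPM (log axis) of the 4 ligand genes and the 4 receptor chain genes in each library after poly(I:C), after poly(dA:dT) and in mock, with each dot a library and each bar the mean of 3. Il6, Lif and Osmr are highest after poly(I:C), lower after poly(dA:dT) and lowest in mock without overlap, whereas the Lifr and Il11 dots of the groups overlap.

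Among the ligands, Il6 showed the largest change. Il6 (ENSMUSG00000025746, chr5:30013114-30019981, plus strand, GRCm38) encodes interleukin-6, the founding member of the family and an inducer of the acute phase response. Il6 stood at 60.6, 65.4 and 57.6 CPM in the poly(I:C) libraries, at 7.85, 4.57 and 6.3 CPM in the poly(dA:dT) libraries and at 0.537, 0.332 and 0.684 CPM in the mock libraries. The 3 groups did not overlap, with the poly(I:C) libraries highest and the mock libraries lowest. The mock level rested on 15, 8 and 13 counts, above the limit of 3 counts, so the transcript was detected at a low level without stimulation. Means were 61.2 ± 3.95 CPM after poly(I:C), 6.24 ± 1.64 CPM after poly(dA:dT) and 0.518 ± 0.177 CPM in mock (SD, n = 3 each). Il6 was 119.9-fold higher after poly(I:C) than in mock, with a 95% interval of 100.3 to 143.2 (log2 fold change 6.91 ± 0.13 SE, adjusted p = 4.19e-65). Poly(dA:dT) cells held 12.1-fold more than mock cells, with an interval of 9.05 to 16.2 (3.6 ± 0.21 on the log2 scale, adjusted p = 1.88e-27). Both intervals against mock are drawn from the test statistic and can be too narrow, since mock had just 36 counts of Il6 in all. Poly(I:C) exceeded poly(dA:dT) by 9.91-fold, with an interval of 8.85 to 11.1 (3.31 ± 0.08, adjusted p = 4.82e-55).

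Lif (ENSMUSG00000034394, chr11:4257557-4272514, plus strand) encodes leukaemia inhibitory factor, which signals through gp130 and the LIF receptor and keeps mouse embryonic stem cells undifferentiated. Lif stood at 43.7, 39.2 and 43 CPM in the poly(I:C) libraries, at 24.9, 21.7 and 21.7 CPM in the poly(dA:dT) libraries and at 8.12, 8.05 and 9.47 CPM in the mock libraries. The groups again did not overlap, and every treated library stood well above every mock library. Means were 41.9 ± 2.43 CPM after poly(I:C), 22.8 ± 1.87 CPM after poly(dA:dT) and 8.55 ± 0.798 CPM in mock (SD, n = 3 each). Lif rose 4.94-fold after poly(I:C) (interval 4.47 to 5.46, adjusted p = 1.56e-67) and 2.68-fold after poly(dA:dT) (interval 2.41 to 2.99, adjusted p = 1.31e-37). The step between the mimics was small beside that of Il6, with poly(I:C) 1.84-fold above poly(dA:dT) (interval 1.69 to 2, adjusted p = 1.46e-28). The ratio of Il6 to Lif within a library, per length, was 2.63 ± 0.32 after poly(I:C), 0.487 ± 0.0971 after poly(dA:dT) and 0.107 ± 0.0294 in mock (SD, n = 3 each). Each of these steps had p = 0.1 in a two-sided exact permutation test, the smallest p that 3 against 3 libraries allow, and 0.115 when adjusted over the 15 ratio comparisons made.

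Il11 (ENSMUSG00000004371, chr7:4772373-4782859, minus strand) encodes interleukin-11, a cytokine with known roles in platelet production and stromal fibrosis. It was close to the detection limit throughout, with 13, 14 and 8 counts after poly(I:C), 11, 18 and 14 counts after poly(dA:dT) and 7, 4 and 16 counts in mock. In CPM these were 0.63, 0.603 and 0.48 after poly(I:C), 0.527, 0.77 and 0.608 after poly(dA:dT) and 0.25, 0.166 and 0.842 in mock. The mock libraries spanned both treated groups, mock replicate 3 standing above all others. The log2 difference was 0.58 for poly(I:C) against mock, with an interval of -0.29 to 1.46, and 0.73 for poly(dA:dT) against mock, with an interval of -0.11 to 1.56 (adjusted p = 0.226 and 0.146). Mock replicate 3 decided this result. Without it Il11 was called higher after both mimics, with log2 differences of 1.42 after poly(I:C) (adjusted p = 0.0154) and 1.57 after poly(dA:dT) (adjusted p = 0.00868). Those calls rest on mock libraries of 7 and 4 counts after the highest mock value was left out, so they show just the weight of that library.

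Clcf1 (ENSMUSG00000040663, chr19:4214238-4223490, plus strand) encodes cardiotrophin-like cytokine factor 1, which signals through the ciliary neurotrophic factor receptor, gp130 and the LIF receptor. It was the ligand that fell. Clcf1 stood at 20.2, 17.1 and 18.5 CPM in the poly(I:C) libraries, at 19.3, 20.6 and 19.1 CPM in the poly(dA:dT) libraries and at 25.7, 23.2 and 22.7 CPM in the mock libraries. Every treated library lay below every mock library, while the treated groups overlapped each other. The log2 fold change was -0.37 ± 0.07 (SE) after poly(I:C) and -0.28 ± 0.07 after poly(dA:dT), or 0.776 and 0.823 of the mock level (adjusted p = 1.24e-06 and 0.000189). Poly(I:C) and poly(dA:dT) were not told apart, with a log2 difference of -0.08 and an interval of -0.23 to 0.06 (adjusted p = 0.318).

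Among the receptor chains, Osmr rose after both mimics, and the ligand-binding chain of the IL-6 receptor, Il6ra, fell after poly(I:C). Osmr (ENSMUSG00000022146, chr15:6813577-6874969, minus strand) encodes the oncostatin M receptor chain, which pairs with gp130 for oncostatin M and with the IL-31 receptor chain for IL-31. Osmr stood at 100.2, 104.5 and 101.1 CPM in the poly(I:C) libraries, at 47.7, 47.1 and 49.3 CPM in the poly(dA:dT) libraries and at 27.1, 28.9 and 30.6 CPM in the mock libraries. The 3 groups were well apart, with little spread inside each. Means were 101.9 ± 2.25 CPM after poly(I:C), 48 ± 1.15 CPM after poly(dA:dT) and 28.9 ± 1.75 CPM in mock (SD, n = 3 each). Osmr rose 3.55-fold after poly(I:C) (interval 3.35 to 3.78, adjusted p = 8.71e-84) and 1.67-fold after poly(dA:dT) (interval 1.57 to 1.79, adjusted p = 5.39e-31). Poly(I:C) exceeded poly(dA:dT) 2.12-fold (interval 2.01 to 2.25, adjusted p = 9.27e-58). Oncostatin M itself, encoded by Osm, had 0 counts after poly(I:C), 1 count after poly(dA:dT) and 0 in mock over each group's 3 libraries, and the IL-31 receptor chain gene Il31ra had 0, 1 and 0. The counts of Osm were thus within what a count of 0 allows in all groups.

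Il6ra (ENSMUSG00000027947, chr3:89864059-89913196, minus strand) encodes the chain that binds IL-6, on the cell surface or as a shed soluble form. Il6ra stood at 26, 23.6 and 25.7 CPM in the poly(I:C) libraries, at 32.4, 32.9 and 35.6 CPM in the poly(dA:dT) libraries and at 33.5, 34 and 30.5 CPM in the mock libraries. The poly(I:C) libraries lay below all others, and the poly(dA:dT) and mock libraries overlapped. Poly(I:C) gave a log2 fold change of -0.39 ± 0.06 (SE) against mock and -0.43 ± 0.06 against poly(dA:dT), or 0.765 and 0.744 of those levels (adjusted p = 2.92e-09 and 1.86e-10). Poly(dA:dT) differed from mock by 0.04 on the log2 scale with an interval of -0.07 to 0.15 (adjusted p = 0.584). An antisense gene, Gm42809, overlaps Il6ra and had 0 to 12 counts per library. The library kit does not mark the strand, so reads of this pair cannot be told apart.

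Il6st (ENSMUSG00000021756, chr13:112464070-112510086, plus strand) encodes gp130, the chain shared by the receptors of this family. Il6st stood at 295.4, 282.5 and 296.1 CPM in the poly(I:C) libraries, at 238.4, 239.5 and 240.5 CPM in the poly(dA:dT) libraries and at 252.6, 249 and 254.6 CPM in the mock libraries. The poly(I:C) libraries lay above mock and the poly(dA:dT) libraries just below it, with no overlap. Il6st rose 1.16-fold after poly(I:C) (interval 1.12 to 1.19, adjusted p = 1.4e-14). In poly(dA:dT) cells it was called lower, at 0.951 of the mock level (interval 0.92 to 0.983, adjusted p = 0.00682). That small fall depended on the scaling, since with total counts the log2 fold change was 0.00094 (adjusted p = 0.977) and with upper-quartile factors it was -0.05 (adjusted p = 0.0627).

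Lifr (ENSMUSG00000054263, chr15:7090614-7197489, plus strand) encodes the LIF receptor chain. Lifr stood at 39, 35.4 and 36.3 CPM in the poly(I:C) libraries, at 36, 36.7 and 34.9 CPM in the poly(dA:dT) libraries and at 35.4, 35.1 and 40.7 CPM in the mock libraries. All 3 groups overlapped. The 95% interval of the log2 difference was -0.1 to 0.11 for poly(I:C) against mock, -0.14 to 0.07 for poly(dA:dT) against mock and -0.07 to 0.15 for poly(I:C) against poly(dA:dT), with adjusted p of 0.971, 0.575 and 0.531. With total counts as the scaling Lifr was called higher after poly(I:C), by 0.12 on the log2 scale (adjusted p = 0.0426), where the median of all tested genes was 0.151, against 0.036 with TMM.

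**Figure D2:**
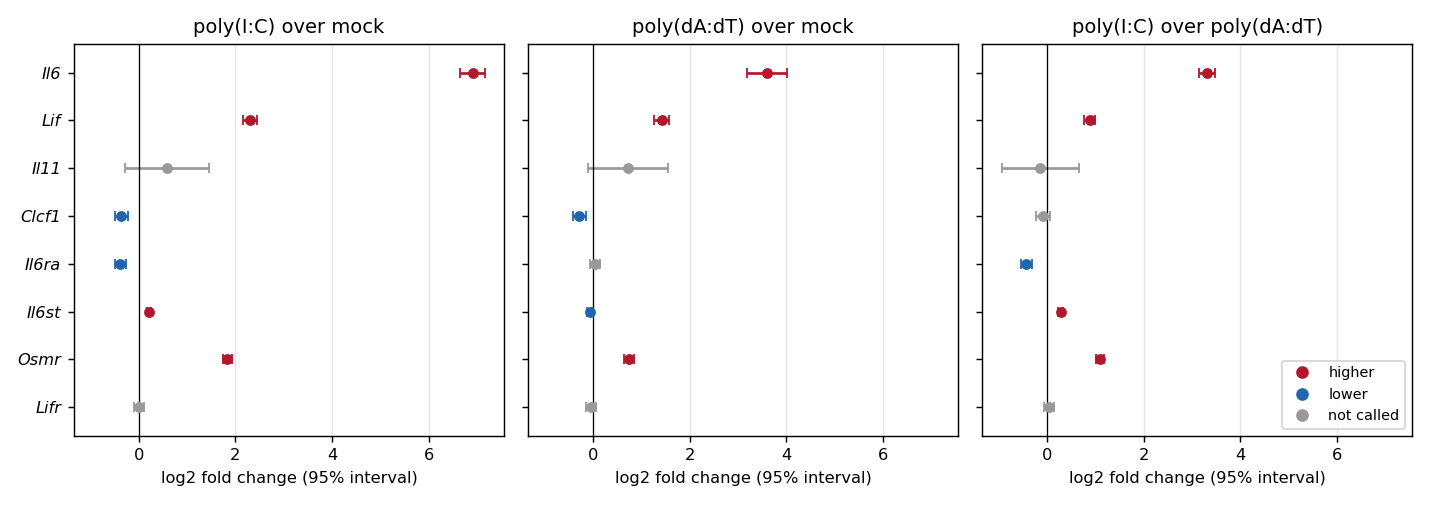
Log2 fold change of each member with its 95% interval, for poly(I:C) over mock, poly(dA:dT) over mock and poly(I:C) over poly(dA:dT), with colours for higher, lower and not called. Il6 lies far to the right in every panel, at 6.91, 3.6 and 3.31, and the intervals of Il11 and Lifr cross 0 in all panels.

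Levels of different genes were compared as CPM per kb of annotated exon. In mock the order was Il6st at 22.7 ± 0.257 CPM per kb, Clcf1 at 6.26 ± 0.426, Il6ra at 3.78 ± 0.221, Lifr at 3.44 ± 0.293, Osmr at 2.38 ± 0.144, Lif at 1.96 ± 0.183, Il6 at 0.213 ± 0.0728 and Il11 at 0.202 ± 0.177 (SD, n = 3). Neighbours overlapped at Il6ra with Lifr and at Il6 with Il11. So the resting fibroblasts held more transcript of each receptor chain than of Lif or Il6, and Clcf1 was the leading ligand. After poly(dA:dT) the level per kb was 21.6 ± 0.0941 for Il6st, 5.24 ± 0.431 for Lif, 5.17 ± 0.21 for Clcf1, 3.97 ± 0.0948 for Osmr, 3.89 ± 0.202 for Il6ra, 3.33 ± 0.0814 for Lifr, 2.57 ± 0.676 for Il6 and 0.305 ± 0.0594 for Il11. Here Lif overlapped Clcf1 and Osmr overlapped Il6ra. After poly(I:C) the level per kb was 26.2 ± 0.691 for Il6st, 25.2 ± 1.63 for Il6, 9.64 ± 0.558 for Lif, 8.42 ± 0.186 for Osmr, 4.89 ± 0.403 for Clcf1, 3.42 ± 0.177 for Lifr, 2.91 ± 0.15 for Il6ra and 0.274 ± 0.0385 for Il11. Il6 then overlapped Il6st, and Il6ra stood below every member except Il11. The order depended in part on the length used. Over longest annotated transcripts in place of merged exons, Il6 no longer overlapped Il6st after poly(I:C), at 24.6 to 27.9 and 32.6 to 34.1 CPM per kb. Osmr moved most, since its longest transcript has 5491 bases against 12113 bases of merged exons, and it stood at 18.6 CPM per kb after poly(I:C), 8.75 after poly(dA:dT) and 5.26 in mock, which placed it above Lif in all groups and above Il6ra and Lifr in mock too.

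**Figure D3:**
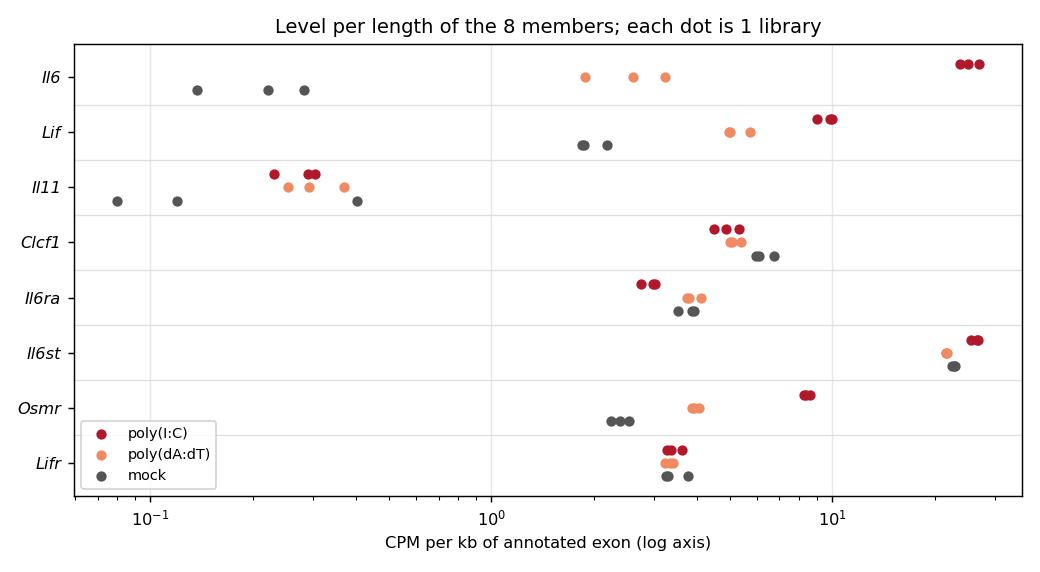
CPM per kb of annotated exon (log axis) for the 8 members, with each dot a library and colours for poly(I:C), poly(dA:dT) and mock. Il6 crosses the other members, at a mean of 25.2 after poly(I:C), 2.57 after poly(dA:dT) and 0.213 in mock, while Il6st stays near the right edge at 26.2, 21.6 and 22.7.

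The balance between receptor chains was read as a ratio within each library, in which gene length and scaling cancel between groups. The size of a ratio still depends on the length used, here merged exons. Over longest annotated transcripts Osmr stood above Lifr in mock, at means of 5.26 and 3.84 CPM per kb. The ratio of Osmr to Lifr was 2.28, 2.63 and 2.48 in the poly(I:C) libraries, 1.18, 1.14 and 1.26 in the poly(dA:dT) libraries and 0.681, 0.733 and 0.669 in the mock libraries. Both chains pair with gp130, and their ratio did not overlap between groups. The ratio of Il6ra to Il6st was 0.111 ± 0.00291 after poly(I:C), 0.18 ± 0.00865 after poly(dA:dT) and 0.166 ± 0.0113 in mock (SD, n = 3 each), lowest in the poly(I:C) libraries. The ratio of Osmr to Il6st was 0.321 ± 0.0156, 0.184 ± 0.00388 and 0.105 ± 0.00601 in the same order of groups. Lifr to Il6st was 0.13 ± 0.00514, 0.154 ± 0.00419 and 0.151 ± 0.0115. In two-sided exact permutation tests every comparison of these ratios had the smallest possible p, 0.1 (adjusted p = 0.115), apart from poly(dA:dT) against mock for Il6ra to Il6st (p = 0.2, adjusted p = 0.214) and for Lifr to Il6st (p = 0.8, adjusted p = 0.8). None can pass a threshold of 0.05 at this size.

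The wider family held 9 other ligand genes, of which 4 passed the filter, and 6 other receptor genes, of which 3 passed. Il27, which encodes the p28 subunit of interleukin-27, passed the filter only through the poly(I:C) libraries, where it was high, so its values are a description. Il27 had 80, 89 and 86 counts in the poly(I:C) libraries, 6, 1 and 7 counts in the poly(dA:dT) libraries and 0, 2 and 1 counts in the mock libraries. Every poly(I:C) library was far above the rest, and the low poly(dA:dT) library overlapped mock. The ratio to mock was 99.8 after poly(I:C), with a 95% counting interval of 33.8 to 487, and 4.93 after poly(dA:dT), with an interval of 1.38 to 26.7. Its partner subunit gene Ebi3 had 0 counts after poly(I:C), 0 after poly(dA:dT) and 4 in mock, so transcript of only the p28 subunit was measured after poly(I:C). Cntf and Ctf1, encoding ciliary neurotrophic factor and cardiotrophin-1, were not called after poly(I:C) or poly(dA:dT), at log2 differences of -0.34 and 0.12 after poly(I:C) and -0.25 and -0.08 after poly(dA:dT). Ctf2 had 6, 2 and 6 counts after poly(I:C), after poly(dA:dT) and in mock, and Il31 had 4, 0 and 0.

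Of the 3 other receptor genes tested, after poly(I:C) Il27ra rose, Il11ra1 fell and Lepr did not pass the test, where 39.8% of tested genes rose and 36.3% fell. Their median log2 fold change was -0.3, against 0.04 for all tested genes. In poly(dA:dT) cells Il11ra1 was lower and the others were not called, where 26.6% of tested genes were higher and 26.2% lower. The median was 0.31 against 0.01, and this was the value of Il27ra, which was not called (adjusted p = 0.122). Il27ra, the signalling chain for IL-27 that pairs with gp130, stood at 4.28 ± 0.624 CPM after poly(I:C), 3.2 ± 0.061 CPM after poly(dA:dT) and 2.55 ± 0.395 CPM in mock (SD, n = 3 each). It rose by 0.75 ± 0.17 (SE) on the log2 scale after poly(I:C) (adjusted p = 2.9e-05). Il11ra1, the IL-11 receptor chain, stood at 13.5 ± 0.683 CPM after poly(I:C), 15.7 ± 0.62 CPM after poly(dA:dT) and 18.4 ± 1.26 CPM in mock. Its log2 fold change was -0.45 ± 0.08 after poly(I:C) (adjusted p = 1.2e-07) and -0.23 ± 0.08 after poly(dA:dT) (adjusted p = 0.00665), and the second call was lost with total counts and without mock replicate 1. Lepr, the leptin receptor gene, had 20 counts after poly(I:C), 38 after poly(dA:dT) and 29 in mock. Cntfr, the receptor chain that CLCF1 binds, had 3, 6 and 6 counts.

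Of 12 genes for JAKs, STATs and adaptors, 7 rose and 5 fell after poly(I:C), where 39.8% of all tested genes rose and 36.3% fell, with a median log2 fold change of 0.26 against 0.04 for all tested genes. The poly(dA:dT) comparison gave 4 higher, 4 lower and 4 not called, where 26.6% of tested genes were higher and 26.2% lower, with a median of -0.04 against 0.01. Stat3, the main STAT of this family, rose by 0.21 ± 0.03 (SE) on the log2 scale after poly(I:C) and was not called after poly(dA:dT) (-0.04, adjusted p = 0.36). The kinase genes Jak2 and Tyk2 rose by 0.9 ± 0.03 and 0.61 ± 0.07 after poly(I:C), and Stat5b by 0.38 ± 0.03. Jak1, the kinase on which gp130 signalling chiefly depends, fell by 0.24 ± 0.02 after poly(I:C) and by 0.15 ± 0.02 after poly(dA:dT). The genes of the SHP2, SHC, GRB2 and SOS1 proteins, which link gp130 to the MAP kinase pathway, fell after poly(I:C), while that of the adaptor GAB1, which works with SHP2, rose by 0.36 ± 0.05. Shc1 changed by -0.61 ± 0.03, Grb2 by -0.35 ± 0.03, Ptpn11 by -0.16 ± 0.02 and Sos1 by -0.15 ± 0.03, the call of Sos1 being lost with total counts (-0.03, adjusted p = 0.353).

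Of 9 genes for inhibitors of the pathway 7 rose after poly(I:C), where 39.8% of tested genes rose, and Pias3 (-0.04) and Ptpn6 (-0.23), with all poly(I:C) values below mock, were not called. The median log2 fold change was 0.61 against 0.04 for all tested genes. In the poly(dA:dT) comparison 6 rose, where 26.6% of tested genes rose, and 3 were not called, with a median of 0.17 against 0.01. Socs3, which binds gp130 and blocks its JAKs, stood at 71 ± 1.51 CPM after poly(I:C), 39.5 ± 1.04 CPM after poly(dA:dT) and 35.1 ± 0.439 CPM in mock. It rose 2.02-fold after poly(I:C) and 1.13-fold after poly(dA:dT) (adjusted p = 1.06e-48 and 0.00185). The related genes Socs2 and Cish, best known as targets of STAT5, rose 7.39-fold and 6.7-fold after poly(I:C) and 2.03-fold and 2.58-fold after poly(dA:dT). Socs1 rose 3.15-fold after poly(I:C) and was not called after poly(dA:dT) (1.13-fold, adjusted p = 0.144). Ptpn2, a phosphatase of JAKs and STATs, rose 1.53-fold and 1.18-fold. Pias3, a binding protein of STAT3, was lower after poly(I:C) than after poly(dA:dT), at 66.9 and 74.8 CPM (log2 fold change -0.16 ± 0.04, adjusted p = 0.00016).

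Of 4 genes for shedding of the IL-6 receptor, 3 were higher and 1 lower after poly(I:C). There 39.8% of tested genes were higher and 36.3% lower, 76.1% in all. After poly(dA:dT) 2 were higher and 2 lower, where 26.6% of tested genes were higher and 26.2% lower, 52.8% in all. A list of 4 genes is too short to be set apart from these shares. The medians of the list were 0.29 and -0.02, against 0.04 and 0.01 for all tested genes. Adam17, the protease that sheds the receptor after cell activation, rose by 0.27 ± 0.04 (SE) on the log2 scale after poly(I:C) and fell by 0.2 ± 0.04 after poly(dA:dT). The genes of its regulators iRhom2 and iRhom1, Rhbdf2 and Rhbdf1, rose by 0.91 ± 0.04 and 0.3 ± 0.04 after poly(I:C). Adam10, a second shedding protease, fell to 127.3 ± 3.73 CPM after poly(I:C) and 169.5 ± 4.19 CPM after poly(dA:dT), against 208.3 ± 2.46 CPM in mock.

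Of 20 genes listed as targets of STAT3, 19 passed the filter, of which 13 rose and 6 fell after poly(I:C), where 39.8% of tested genes rose and 36.3% fell, with a median log2 fold change of 1.01 against 0.04 for all tested genes. With poly(dA:dT), 12 rose, 4 fell and 3 were not called, where 26.6% of tested genes were higher and 26.2% lower, with a median of 0.28 against 0.01. Saa3, an acute phase protein, had the largest rise of the list after poly(I:C) and stood at 28.2 ± 2.96 CPM after poly(I:C), 3.44 ± 0.198 CPM after poly(dA:dT) and 1.16 ± 0.368 CPM in mock. Fos and Junb, subunits of AP-1, rose by 3.24 ± 0.12 and 2.29 ± 0.03 (SE) on the log2 scale after poly(I:C), and Cebpd, a C/EBP factor of the acute phase response, by 2.44 ± 0.08. Ccl2, a chemokine for monocytes, rose by 2.21 ± 0.02. Many of these genes also have other known inducers, NF-kB and the MAP kinases among them. Socs3 is also in the list of inhibitors, and Cebpb and Cebpd are also among the regulators of Il6 below, so these lists overlap. The 6 lower members were Ccnd1, Birc5, Timp1, Hif1a, Bcl2l1 and Mcl1, at -0.55, -0.41, -0.39, -0.29, -0.25 and -0.12 after poly(I:C), and Mcl1 lost its call with total counts (-0.01, adjusted p = 0.811). After poly(dA:dT) Mcl1 was instead called higher, by 0.07 (adjusted p = 0.0328). That call was lost with DESeq2 size factors (adjusted p = 0.134), where 11 of the list rose. Ccnd1, Birc5, Bcl2l1 and Mcl1 are known for cell cycle entry and survival, and Timp1 for the inhibition of matrix proteases.

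Regulators of the Il6 gene and its mRNA were the last list. Of 13 such genes, poly(I:C) raised 10 and lowered 2, and 1 did not pass the test, where 39.8% of tested genes rose and 36.3% fell, with a median log2 fold change of 1.04 against 0.04 for all tested genes. With poly(dA:dT), 9 rose, 2 fell and 2 were not called, where 26.6% of tested genes were higher and 26.2% lower, with a median of 0.37 against 0.01. Atf3, a CRE-binding repressor of Il6 in mouse macrophages, stood at 271.3 ± 2.66 CPM after poly(I:C), 72.4 ± 1.28 CPM after poly(dA:dT) and 11.5 ± 0.242 CPM in mock. Arid5a, which stabilises Il6 mRNA, and Zfp36, which promotes the decay of AU-rich mRNAs, rose 6.83-fold and 6.4-fold after poly(I:C) and 2.96-fold and 1.8-fold after poly(dA:dT). Nfkbiz, a nuclear partner of NF-kB needed for Il6 induction in mouse macrophages, rose 2.71-fold and 1.26-fold. Genes with opposite known effects on Il6 mRNA thus rose together. The 2 members that fell, Rc3h1 and Rc3h2, encode roquin proteins, which bind stem-loops in Il6 mRNA and promote its decay. Rc3h1 changed by -0.5 ± 0.05 (SE) on the log2 scale after poly(I:C) and -0.15 ± 0.04 after poly(dA:dT), and Rc3h2 by -0.14 ± 0.04 and -0.16 ± 0.04. With total counts the call of Rc3h2 was lost after both mimics (adjusted p = 0.546 after poly(I:C) and 0.0646 after poly(dA:dT)), and that of Rc3h1 after poly(dA:dT) (adjusted p = 0.151, and 0.0514 without poly(dA:dT) replicate 1).

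**Figure D4:**
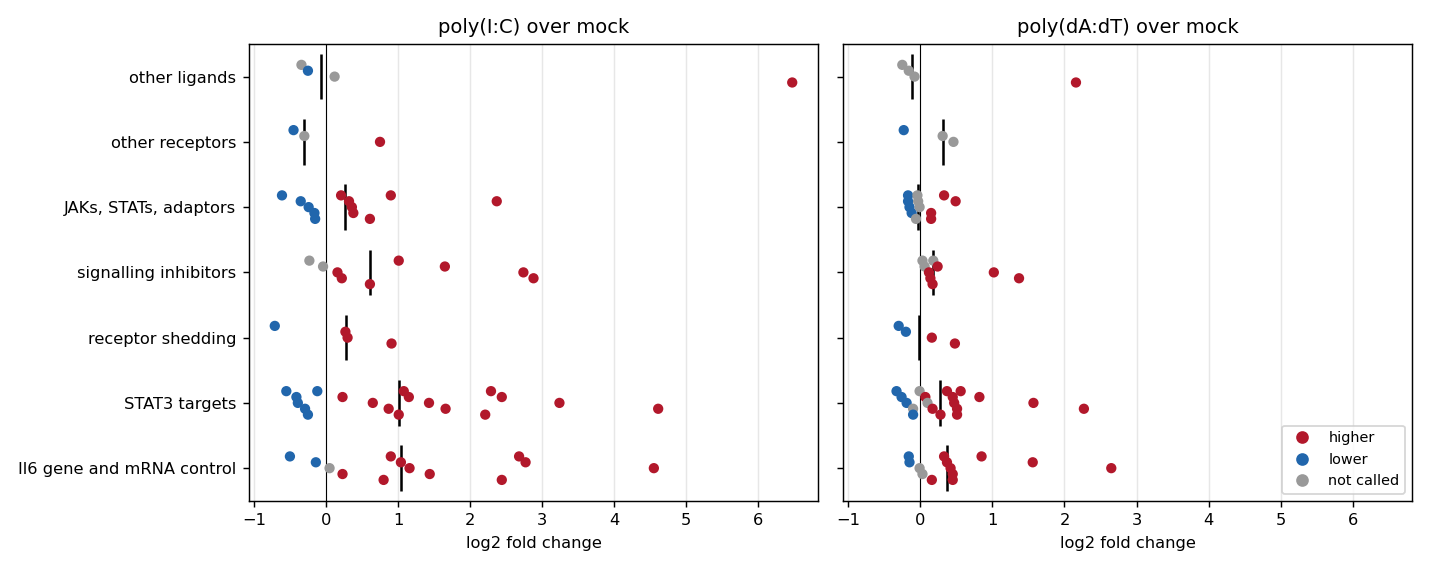
Log2 fold change over mock of each tested gene in 7 lists of pathway genes, for poly(I:C) and poly(dA:dT), with each dot a gene, colours for higher, lower and not called, and a bar at the list's median. Medians after poly(I:C) reach 1.01 for STAT3 targets, 1.04 for regulators of Il6 and 0.61 for inhibitors, against 0.28, 0.37 and 0.17 after poly(dA:dT).

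The genes most like Il6 and Lif were found by the distance between their pairs of log2 fold changes over mock, among 11739 protein-coding genes with a mean of at least 1 CPM. Nearest to Il6 was Cxcl10, a chemokine induced by interferon, at a distance of 0.256. Cxcl10 stood at 1310.3 ± 28.7 CPM after poly(I:C), 132.4 ± 2.43 CPM after poly(dA:dT) and 9.6 ± 0.583 CPM in mock, so its steps matched those of Il6 at a far higher abundance. The next were Arhgef16 at 0.457, and Ifit3b, of the interferon-induced IFIT family, at 0.53. The fold of Arhgef16 over mock rests on 2 counts there. At 3.32, 0.309 and 0.0239 CPM in the same order of groups, it reached the limit of 1 CPM only through the poly(I:C) libraries. Nearest to Lif were Sec31b at 0.0507, Rad52, a gene of homologous recombination, at 0.0562, and Taf1d, a subunit of the RNA polymerase I selectivity factor, at 0.0723. Rad52 stood at 44.8 ± 0.31, 24.3 ± 1.57 and 9.32 ± 1.25 CPM after poly(I:C), after poly(dA:dT) and in mock. Sec31b had just 127, 81 and 31 counts in these groups, so its place ahead of the others is uncertain. The likeness rests on the group means of 9 libraries and on the shared mock libraries, and is a description.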

How the data were processed

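RNA sequencing was made from total RNA (RNeasy) with a TruSeq RNA Library Prep Kit v2, per the labels. The authors deposited raw read counts per Ensembl gene, 1 column per library. The submitters' processing notes name build GRCm38.p4 and the tools TopHat2 2.1.0, HTSeq and DESeq2. How strand and multiply mapped reads were handled is not stated, nor is the annotation release. Counts were used as deposited.

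Symbols, positions and exon lengths came from GENCODE M21 of GRCm38, which held 46091 of the 46603 identifiers. The other 512 carried 0.0588% of the counts. Promoter sequences came from RefSeq, build GRCm38.p6.

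The main test was edgeR's two-sided quasi-likelihood test (edgeR 4.0.16, R 4.3.3, robust, TMM scaling, filterByExpr by group). It fitted 1 mean per group to all 9 libraries, left 6 residual degrees of freedom and tested 14176 genes with a Benjamini-Hochberg threshold of 0.05. Log2 fold changes used a prior count of 0.125, and their SE is the absolute log2 fold change over the square root of F. Such an SE, and the interval from it, can be too small for a large fold over few counts. For Il27 after poly(I:C) it gave a fold interval of 49.6 to 158.8, against a counting interval of 33.8 to 487. Counting limits and intervals cover counting error alone, because PCR copies could not be told from separate molecules. Replicates of a group differed beyond sampling noise in all 9 pairs (chi-square per degree of freedom 1.64 to 2.1). No batch is named in the labels. The code was tested on simulated data.

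The members and the gene lists were chosen with earlier results of these data known. All 8 members are named in every comparison. From each list the text names up to 5 genes with the largest change after poly(I:C), those called against the direction of the list, and other ligands or receptors with more than 3 counts in a group. Stat3, Gab1, Ptpn6, Osm, Il31ra, Actb and the cell type markers were named outside this rule, after their values were seen. The likeness search takes the 3 nearest genes to Il6 and to Lif. A few genes that fall under the rule are not reported here. Alternatives were other scalings (DESeq2 size factors, total counts, upper-quartile factors), the DESeq2 test (version 1.42.0), other filters, leaving out each library, a replicate block and fits of only the 2 groups compared. Counts of list members under these alternatives were added after the data had been seen.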

Additional observations from a re-analysis of the deposited data

How the results depend on the processing

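The calls of Il6, Lif, Clcf1 and Osmr against mock, and of Il6, Lif, Il6ra, Il6st and Osmr for poly(I:C) against poly(dA:dT), kept their direction and their side of the threshold under every alternative run, as did the poly(I:C) calls of Il6ra and Il6st against mock. Leaving out 1 library in turn gave 6 to 7 members called for poly(I:C) against mock, 5 to 6 for poly(dA:dT) against mock and 5 for poly(I:C) against poly(dA:dT). Of all tested genes, 10387 to 10949, 6816 to 7550 and 8442 to 9205 were then called, in the same order of comparisons. For poly(dA:dT) against mock, 6 to 9 of the 12 genes for JAKs, STATs and adaptors and 14 to 16 STAT3 targets were called. For poly(I:C) against mock these counts stayed at 12 and 19. With total counts 8 inhibitors were higher after poly(dA:dT), in place of 6, where 5004 of 14176 tested genes were higher. The replicate numbers did not pair the libraries, with correlations of same-numbered deviations between -0.01 and 0.02 and the best correlation with the own number in 5 of 18 cases. With the replicate block 10724, 7384 and 8905 genes were called in these 3 comparisons, against 10787, 7490 and 8981 without it, and no call of a member changed. Changes of sign were seen in differences that were not called, and in the small fall of Il6st. For poly(dA:dT) against mock with total counts, Il6st had a log2 fold change of 0.00094 and Lifr one of 0.04. For poly(I:C) against mock, Lifr had -0.01 with DESeq2 size factors, -0.02 with DESeq2, -0.03 without a filter and -0.01 in a fit of only those 2 groups. When 1 library was left out, Lifr ranged from -0.04 to 0.06 for poly(I:C) against mock, from -0.07 to 0.02 for poly(dA:dT) against mock and from -0.0051 to 0.07 for poly(I:C) against poly(dA:dT). Over the same omissions Il6ra ranged from -0.0054 to 0.07 for poly(dA:dT) against mock, and Il11 from -0.26 to 0.02 for poly(I:C) against poly(dA:dT). The cause of these changes was not tested. With total counts, 67.7% of the calls for poly(dA:dT) against mock were higher, against 50.3% with TMM, and the median of all tested genes was 0.085 against 0.011. Depth limits Il11 most, at 35 counts after poly(I:C), 43 after poly(dA:dT) and 27 in mock.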
